A study of Homo sapiens with 6 samples.

Results

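Mitochondrial ribosomal protein genes were taken as every row of the bulk RNA-seq count table whose symbol was MRPL or MRPS followed by a number and, at most, one of the letters A to C, with the counts of identifiers that share a symbol summed. The rule found 78 genes, under 88 of the table's 61196 gene identifiers, among 48183 symbols in all. By their known place in the ribosome, 51 code for proteins of the large subunit and 26 for proteins of the small subunit. MRPS18A and MRPS30 are counted with the large subunit, where their proteins sit, despite the S in their symbols. MRPS36 was left out of both subunits, because its product is now known as a component of the 2-oxoglutarate dehydrogenase complex. All 78 passed the filter on low counts, with means from 12.1 (MRPL53) to 281 (MRPS23) CPM, a count scaled to one common library total, with totals adjusted by the trimmed mean of M values (TMM).

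The 6 libraries came from human pluripotent stem cells that carry the EOS reporter, on an H1 background by the labels and on an H9 background by the study's text. Primed cells, which resemble the epiblast after implantation, gave 1 library from the EOS line and 1 from the CA-p38 EOS line, both grown in StemFit AK02N on Matrigel. The CA-p38 EOS line also carries a constitutively active form of the kinase p38 under a doxycycline-inducible Tet-ON promoter, and was sorted as a pool for its mCherry marker. Naive cells, which resemble the epiblast before implantation, gave 4 libraries: AICAR 1 and AICAR 2 (EOS cells induced with AICAR, an activator of the energy-sensing kinase AMPK), VPA (EOS cells induced with valproic acid, a histone deacetylase inhibitor) and CA-p38 (CA-p38 EOS cells induced by switching on the active p38). The labels give PXGL medium on mouse feeder cells for all naive cells, which were sorted for the naive surface proteins CD75 and SUSD2. The study's text also describes a move of CA-p38 cells to culture without feeder, and does not say whether the CA-p38 library came from before or after it. By the study's text, AICAR and doxycycline were withdrawn after induction and the cells were expanded in PXGL. Its legend places all naive libraries many passages after induction, at passage numbers that were not all the same. State therefore cannot be told apart from medium, feeder, sorting and this expansion, and the naive group mixes 3 methods of induction. The study's legend gives AICAR 1 and AICAR 2 different passage numbers, and they may be 1 culture sampled at different passages. No label says that they were separate cultures, so p-values measure the spread between these libraries, which may in part be technical.

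Total counts per library ran from 46823699 to 54277064. The 8 naive markers checked were all above the primed values in each naive library, and the 6 primed markers were all below them, so the labels and the cells matched. Fibroblast genes, checked because of the feeder, summed to between 32.3 and 75.3 CPM in the naive libraries and to between 215 and 228 CPM in the primed ones. Of these 8 genes, 5 were below both primed libraries in every naive library and 1 was above. COL3A1, a collagen of fibroblasts, overlapped between the groups and was highest in the CA-p38 library at 16.6 CPM. The primed cells, grown on Matrigel, had the higher sum, so these genes cannot measure the content of feeder cells. The part of feeder cells in the results was not tested.

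The mitochondrial ribosome translates the few messages of the mitochondrial genome, which code for core subunits of the respiratory chain and of ATP synthase. Its RNAs are made in the mitochondrion, but every one of its proteins is coded in the nucleus, made in the cytosol and imported. Part of these proteins descend from those of the bacterial ribosome, and the others were added in the mitochondrial lineage. Human naive cells are generally described as relying more on mitochondrial respiration than primed cells do, which is why the protein genes of this ribosome are of interest here.

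The promoters of these genes are shown for the 3 highest fold changes, for 3 of the lowest and for MRPL38. MRPL38 and MRPS10 were picked after the motifs were found, as members with the YY1 core that changed in opposite directions. They are drawn from RefSeq (GRCh38.p14), 5′ to 3′ on the strand of the gene, from 150 bases before the annotated start to 30 after it. Capitals mark 2 short motifs searched on both strands: AAGATGGC, the core of the site bound by YY1, and CCGGAAG, a core of sites bound by ETS factors, which reads CTTCCGG on the other strand. The stretches are MRPL18 (chr6:159789662-159789841, plus strand), MRPS23 (chr17:57850015-57850194, minus), MRPS12 (chr19:38930794-38930973, plus), MRPL38 (chr17:75904855-75905034, minus), MRPS6 (chr21:34073428-34073607, plus), MRPL3 (chr3:131502942-131503121, minus) and MRPS10 (chr6:42217832-42218011, minus).
MRPL18: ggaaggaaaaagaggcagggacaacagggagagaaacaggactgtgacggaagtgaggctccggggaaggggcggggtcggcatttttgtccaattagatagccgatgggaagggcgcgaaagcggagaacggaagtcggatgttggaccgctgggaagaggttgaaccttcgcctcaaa
MRPS23: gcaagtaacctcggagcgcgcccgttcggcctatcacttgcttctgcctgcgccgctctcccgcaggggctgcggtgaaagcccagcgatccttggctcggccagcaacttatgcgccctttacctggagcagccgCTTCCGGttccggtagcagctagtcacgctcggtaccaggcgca
MRPS12: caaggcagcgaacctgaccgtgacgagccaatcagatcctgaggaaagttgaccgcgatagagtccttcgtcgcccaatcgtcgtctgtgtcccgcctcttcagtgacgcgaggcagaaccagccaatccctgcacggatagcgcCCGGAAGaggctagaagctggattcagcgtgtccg
MRPL38: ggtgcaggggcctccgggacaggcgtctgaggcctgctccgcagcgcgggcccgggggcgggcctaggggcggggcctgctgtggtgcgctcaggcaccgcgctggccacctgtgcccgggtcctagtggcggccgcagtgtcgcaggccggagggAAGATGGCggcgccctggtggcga
MRPS6: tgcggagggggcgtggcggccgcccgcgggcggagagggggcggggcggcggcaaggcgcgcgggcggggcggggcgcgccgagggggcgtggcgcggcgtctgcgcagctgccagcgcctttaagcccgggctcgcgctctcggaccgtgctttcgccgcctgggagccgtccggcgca
MRPL3: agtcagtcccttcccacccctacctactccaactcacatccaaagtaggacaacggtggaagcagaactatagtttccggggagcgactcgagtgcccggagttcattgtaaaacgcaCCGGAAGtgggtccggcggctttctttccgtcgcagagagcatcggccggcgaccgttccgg
MRPS10: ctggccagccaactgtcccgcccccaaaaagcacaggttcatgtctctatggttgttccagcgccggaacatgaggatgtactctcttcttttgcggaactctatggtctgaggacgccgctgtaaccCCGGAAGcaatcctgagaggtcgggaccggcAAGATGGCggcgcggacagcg
MRPS23 and MRPS12, higher in naive cells, and MRPL3 and MRPS10, lower, each hold the ETS core at or shortly before the start. MRPL38, higher, and MRPS10, lower, each hold the YY1 core just after it. MRPL18 and MRPS6, at the opposite ends of the order, hold neither motif in this stretch.

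RefSeq windows of 300 bases (250 before the start and 50 after) were found for 69 of the 78 members. The YY1 core was in 20 of them (29%), against 3.03% of 27305 windows of all genes. These windows were not restricted to coding genes or to genes that passed the filter, and motif shares in a closer background were not computed. It lay in the sense direction within the first 30 bases after the start in 12 members (17.4%), against 0.945% of all windows. The ETS core was in 29 members (42.0%), against 10.7% of all windows, and 8 members held both motifs. In none did the ETS core run into the YY1 core through a shared AAG, and other overlaps were not searched. The YY1 core stood in 6 of 20 windows of members that were higher in naive cells, in 7 of 17 of those that were lower and in 7 of 32 of those without a call. For the ETS core the counts were 8 of 20, 8 of 17 and 13 of 32. Both motifs were thus more frequent among the members than among all windows, and were found on both sides of the comparison. Among all tested genes with a window, 37.6% of the 619 with the YY1 core were lower and 22.5% higher, and 35.3% of the 2258 with the ETS core were lower and 25.3% higher. Of all genes tested, with or without a window, 27% were lower and 26% higher. Of protein-coding genes in the members' range of mean CPM, 41.1% were lower and 28.6% higher. The shares among all tested genes with a window were not computed. A match gives letters in a window and no evidence of binding.

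As a group, the mitochondrial ribosomal protein genes did not move one way between primed and naive cells. In naive cells 26 of 78 were higher (33.3%) and 19 were lower (24.4%) by the quasi-likelihood test of edgeR, adjusted by Benjamini-Hochberg across the 26497 genes that passed the filter (adjusted p under 0.05). Of all genes tested, 26% were higher, 27% lower and 53.1% called in either direction, against 45 of 78 members (57.7%). The members' share of calls was thus near that of the table as a whole. Protein-coding genes in the members' range of mean CPM, a closer background, were called more often than the members, at 69.7% of 8884, with 28.6% higher and 41.1% lower.

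The changes were also small. The median log2 fold change of the members, naive over primed, was -0.02, with quartiles of -0.27 and 0.44. All genes tested had a median of 0.11, with quartiles of -0.72 and 0.99. A call together with a change of at least 2-fold was found for 6 members (7.69%), against 35.3% of all genes tested and 30.8% of the protein-coding genes at similar levels. The naive and primed ranges were apart for 48 members (61.5%, naive above primed in 26 and below in 22). They were apart for 64.9% of all genes tested and for 78% of the protein-coding genes at similar levels. The sign of the members' median depended on the scaling: it was 0.08 with library totals in place of TMM.

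**Figure D1:**
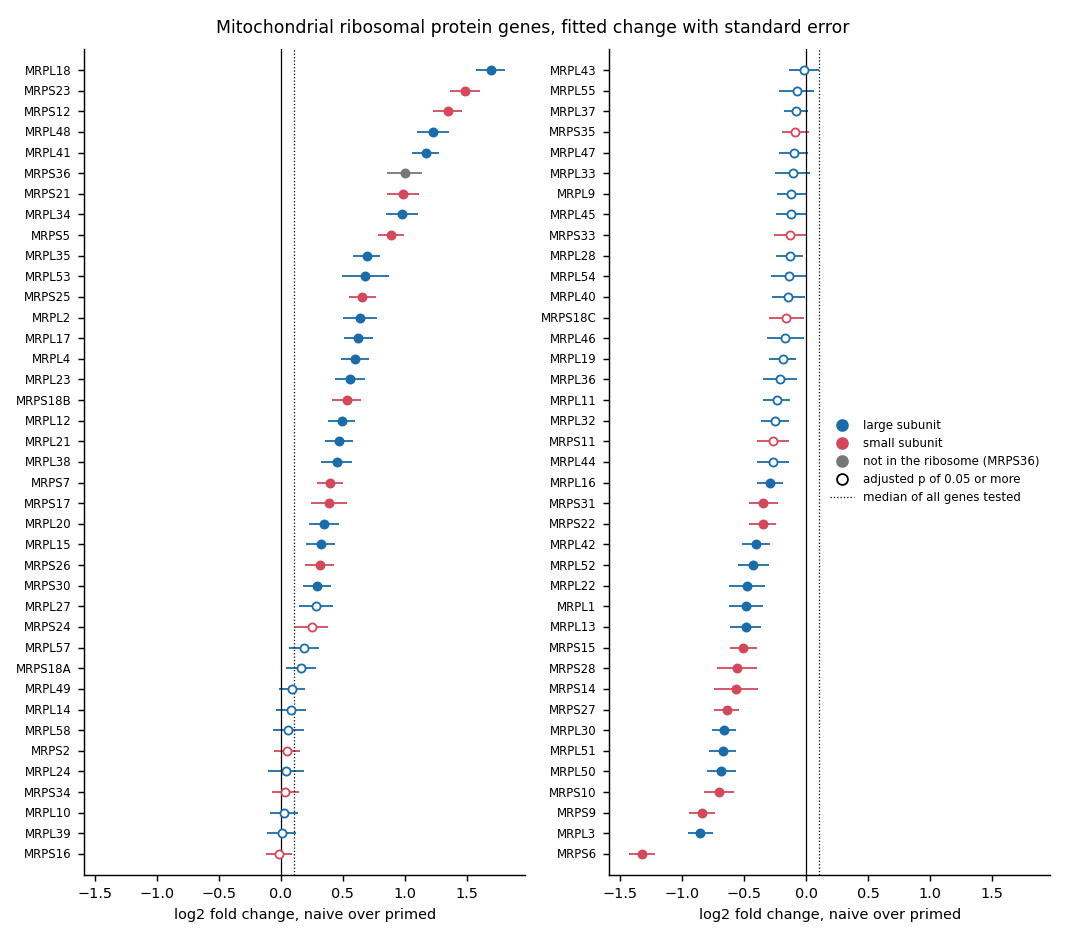
Fitted log2 fold change (naive over primed, with its standard error) of the 78 mitochondrial ribosomal protein genes in rank order, coloured by subunit, with open circles for an adjusted p of 0.05 or more and a dotted line at the median of all genes tested (0.11). The order falls from 1.70 (MRPL18) to -1.32 (MRPS6), and both subunits are found at both ends.

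Both subunits were divided. In the large subunit 16 of 51 members were higher and 10 lower, with a median log2 fold change of -0.02. In the small subunit 9 of 26 were higher and 9 lower, with a median of -0.05. Members with a bacterial counterpart (46, of which 16 were higher and 12 lower, median -0.05) and those specific to mitochondria (31, of which 9 were higher and 7 lower, median -0.02) were likewise divided. Differences between these classes were not tested.

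MRPL18, a large subunit protein of the central protuberance, had the highest fold change. It stood at 217, 198, 238 and 196 CPM in AICAR 1, AICAR 2, VPA and CA-p38, and at 64.8 and 66.5 CPM in primed EOS and primed CA-p38. All 4 naive libraries were far above both primed libraries, which differed little from each other, and the log2 fold change was 1.70 ± 0.12 (SE, edgeR adjusted p = 7.48e-08). Within the large subunit, MRPL48 and MRPL41, proteins that bacteria lack, came next. MRPL48 stood at 69.3, 66.8, 63.3 and 64.7 CPM in the naive libraries, in the same order, against 25.2 and 31.1 CPM in primed EOS and primed CA-p38 (log2 1.23 ± 0.13). MRPL41 stood at 164, 160, 149 and 140 CPM against 68.1 and 67.8 CPM (log2 1.17 ± 0.11). In neither gene did the groups overlap. MRPL34, a short protein with a bacterial counterpart, stood at 58.1, 49.6, 49.4 and 47.9 CPM against 26.9 and 25.1 CPM, with AICAR 1 above the other naive libraries (log2 0.98 ± 0.13, edgeR adjusted p = 3.35e-05).

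Among the small subunit genes, MRPS23 carried the most reads and rose the most. This protein, which bacteria lack, stood at 363, 329, 384 and 354 CPM in AICAR 1, AICAR 2, VPA and CA-p38, against 111 and 144 CPM in primed EOS and primed CA-p38 (log2 1.49 ± 0.12, edgeR adjusted p = 4.60e-07). The naive libraries were all above the primed ones, and primed CA-p38 was above primed EOS. MRPS12, a protein of the decoding centre, stood at 113, 113, 108 and 103 CPM against 39.5 and 46.5 CPM (log2 1.35 ± 0.12). MRPS21 stood at 98.9, 87.5, 104 and 79.8 CPM against 45.8 and 47.5 CPM (log2 0.99 ± 0.13). Neither overlapped between the groups. MRPS36, the dehydrogenase component, stood at 41.7, 33.4, 39.5 and 34.6 CPM against 19.2 and 18.1 CPM (log2 1.0 ± 0.14), so that it was about 2-fold higher without being part of the ribosome.

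The other 18 members that were higher ran from a log2 fold change of 0.89 (MRPS5) down to 0.29 (MRPS30). MRPL12, the stalk protein that contacts translation factors and also binds the mitochondrial RNA polymerase, was among them, at 107, 94.0, 96.9 and 91.8 CPM in AICAR 1, AICAR 2, VPA and CA-p38 against 65 and 73.5 CPM in primed EOS and primed CA-p38 (log2 0.49 ± 0.11). MRPS26 (log2 0.31 ± 0.12), MRPS17 (0.39 ± 0.14) and MRPS30 (0.29 ± 0.11) were the members nearest to the threshold on its inner side, with edgeR adjusted p of 0.0376, 0.0378 and 0.0441. Their calls were lost in 9, 8 and 9 of the 16 alternative settings, and the log2 fold change of MRPS17 ran from 0.12 to 0.70 over them. MRPL11, just outside it, had a log2 fold change of -0.24 ± 0.11 (edgeR adjusted p = 0.0762).

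**Figure D2:**
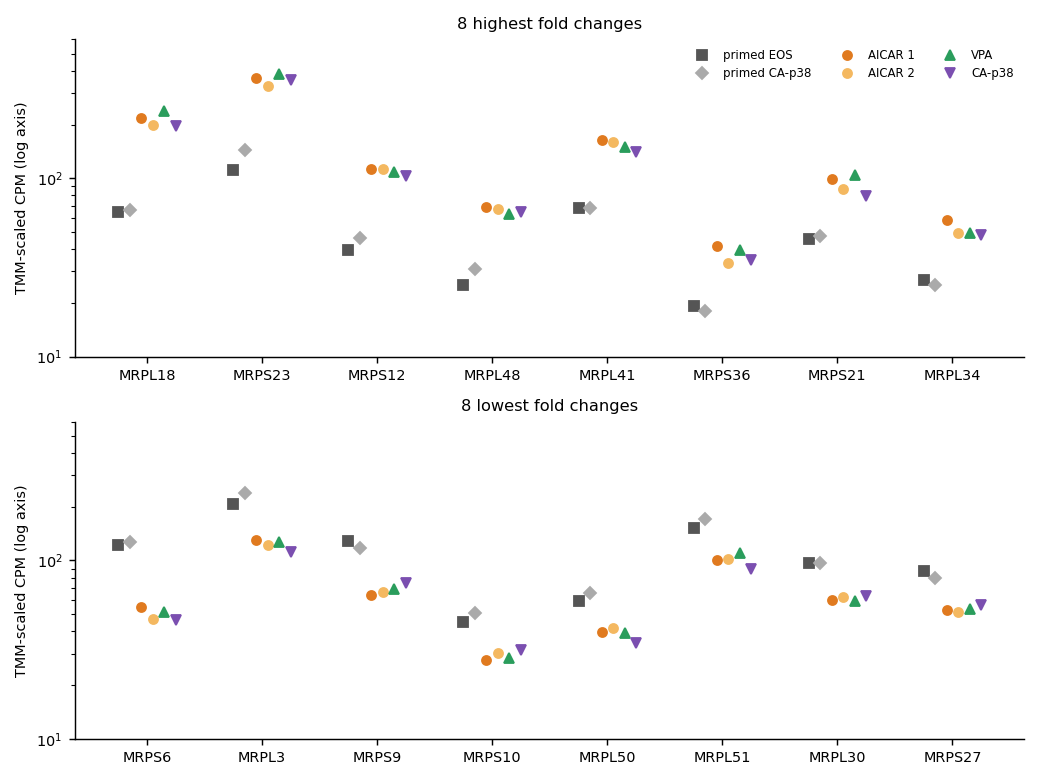
TMM-scaled CPM (log axis) in each of the 6 libraries for the members with the 8 highest and the 8 lowest fold changes. The naive and primed libraries overlap in none of the 16 genes, which were picked by their fold changes in these same libraries, so this is no separate result. Of all genes tested, 64.9% did not overlap, and of coding genes in the members' range of mean CPM, 78%.

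The lowest fold change belonged to MRPS6, a small subunit protein with a bacterial counterpart. It stood at 54.5, 47.2, 51.3 and 46.4 CPM in AICAR 1, AICAR 2, VPA and CA-p38, against 122 and 127 CPM in primed EOS and primed CA-p38, and the log2 fold change was -1.32 ± 0.11 (edgeR adjusted p = 3.25e-07). It was the only member that fell by more than 2-fold, and the groups were far apart. SLC5A3, which codes for a myo-inositol transporter and overlaps MRPS6 on the same strand, was also lower, with a log2 fold change of -1.04. Whether reads were shared between the 2 genes was not tested.

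MRPL3, a protein that reaches towards the peptidyl transferase centre, stood at 130, 122, 127 and 112 CPM in AICAR 1, AICAR 2, VPA and CA-p38, against 206 and 238 CPM in primed EOS and primed CA-p38 (log2 -0.86 ± 0.10, edgeR adjusted p = 1.34e-05). MRPS9, of the small subunit, stood at 64.0, 66.7, 69.1 and 75.1 CPM against 129 and 118 CPM (log2 -0.84 ± 0.11). MRPS10, also of the small subunit, stood at 27.8, 30.1, 28.5 and 31.6 CPM against 45.2 and 50.8 CPM (log2 -0.70 ± 0.12). Each of the 3 was below both primed libraries in every naive library.

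The remaining 4 of the 8 lowest were MRPL50 (log2 -0.69 ± 0.12), MRPL51 (-0.68 ± 0.11), MRPL30 (-0.66 ± 0.10) and MRPS27 (-0.64 ± 0.10). MRPL51, a large subunit protein that bacteria lack, stood at 101, 101, 110 and 89.6 CPM in AICAR 1, AICAR 2, VPA and CA-p38 and at 151 and 170 CPM in primed EOS and primed CA-p38. MRPS27, a pentatricopeptide repeat protein that binds the ribosomal RNA of the small subunit, stood at 52.6, 51.2, 53.3 and 56.4 CPM against 86.8 and 79.9 CPM. MRPL30 overlaps unnamed transcripts on the same strand that were lower too. The other 11 members that were lower ran from -0.57 (MRPS14) to -0.29 (MRPL16). MRPS22, mutated in inherited deficiency of oxidative phosphorylation, was among them at 53.0, 52.2, 59.2 and 57.4 CPM against 69.8 and 71.6 CPM (log2 -0.35 ± 0.11, edgeR adjusted p = 0.0150). Its call was lost with library totals and with primed CA-p38 left out.

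The 3 MRPS18 paralogs differ in their place in the ribosome, and only MRPS18B passed the test. MRPS18B, on chromosome 6, was higher: 124, 120, 130 and 132 CPM in AICAR 1, AICAR 2, VPA and CA-p38 against 77.1 and 97.8 CPM in primed EOS and primed CA-p38 (log2 0.53 ± 0.12, edgeR adjusted p = 0.00187). MRPS18A, whose product is in the large subunit, had a log2 fold change of 0.16 ± 0.12 (adjusted p = 0.290), and MRPS18C, the paralog with the bacterial counterpart, -0.16 ± 0.14 (adjusted p = 0.358), both with overlapping groups. MRPS18B was listed under 7 identifiers, which were summed, since the region has alternative assemblies in the annotation. Differences between the paralogs were not tested.

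Of the 33 members that did not pass the test, several have known special roles. MRPL58, a peptidyl-tRNA hydrolase built into the large subunit, stood at 45.1, 43.6, 48.1 and 38.7 CPM in AICAR 1, AICAR 2, VPA and CA-p38 against 41.2 and 43.0 CPM in primed EOS and primed CA-p38, and the log2 fold change was 0.06 ± 0.12. MRPL45, which holds the ribosome to the inner membrane, had a log2 fold change of -0.12 ± 0.12, and MRPL44, with a ribonuclease III-like fold, -0.27 ± 0.13. MRPS2 (0.05 ± 0.11), MRPS34 (0.03 ± 0.11), MRPL36 (-0.21 ± 0.14) and MRPL46 (-0.17 ± 0.15) also had naive libraries within or close to the primed range.

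Summed over all members, the level was slightly higher in naive cells. The sum was 5957, 5619, 5944 and 5573 CPM in AICAR 1, AICAR 2, VPA and CA-p38, and 4994 and 5448 CPM in primed EOS and primed CA-p38. The naive libraries were all above the primed ones, but CA-p38 exceeded primed CA-p38 by little, and the ratio of the group means was 1.11. Without MRPS23, MRPS34 and MRPL18, the members with the highest mean CPM, the ratio was 1.04, and with library totals it was 1.18. As a share of all counts the members made up 0.567% to 0.601% of the naive and 0.487% to 0.510% of the primed libraries.

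The small subunit genes summed to 1.16 times and the large subunit genes to 1.07 times the primed level. The ratio of the small to the large subunit sum was 0.650, 0.641, 0.646 and 0.660 in AICAR 1, AICAR 2, VPA and CA-p38, and 0.598 and 0.590 in primed EOS and primed CA-p38, with no overlap. This gap depended on single genes. Without MRPS23, the ratio ran from 0.539 to 0.554 in the naive and from 0.548 to 0.562 in the primed libraries, so that the groups overlapped, and the small subunit sum was 1.05 times the primed level. Without both MRPS23 and MRPL18, the member of the highest fold change in each subunit, it ran from 0.577 to 0.589 against 0.559 to 0.574, again without overlap. These omissions were chosen after seeing the data.

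**Figure D3:**
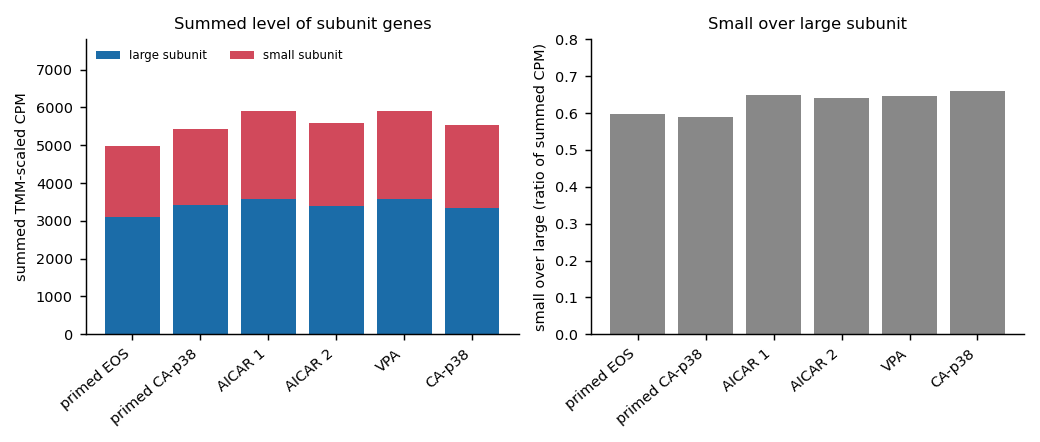
Left, summed TMM-scaled CPM of the large (51 genes) and small (26 genes) subunit in each library; right, the small sum over the large sum. The naive ratios, 0.641 to 0.660, lie above the primed ones, 0.590 and 0.598, a gap that closes without MRPS23 and is open again, at 0.577 to 0.589 against 0.559 to 0.574, without both MRPS23 and MRPL18.

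Levels of different genes were compared per kilobase of annotated exon. MRPL41 was the highest, with a mean of 214 CPM per kb over the 6 libraries, followed by MRPS34 (165), MRPS26 (136) and MRPL18 (119). In MRPL41 the naive libraries ran from 240 to 281 CPM per kb and the primed ones were at 116 and 117, so that in primed cells MRPS34, at 148 and 176 CPM per kb, stood above it. MRPL18, at 47.1 and 48.4 CPM per kb in the primed libraries, was below MRPS26, at 122 and 112, and in the naive libraries MRPL18 ran from 143 to 173 and MRPS26 from 129 to 165. Here their ranges overlapped. The lowest were MRPS27 (3.25), MRPS22 (3.69), MRPL42 (4.05) and MRPL46 (4.12), whose annotated exons cover 6402 to 19524 bases in all. A longer annotated length gives a lower value, and which isoforms the cells used was not measured.

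The parental lines were compared through separate libraries. Naive over primed, the median log2 ratio of the members was 0.02 in the EOS line (mean of AICAR 1, AICAR 2 and VPA over primed EOS), with a range from -1.26 to 1.75. In the CA-p38 EOS line (CA-p38 over primed CA-p38) it was -0.13, with a range from -1.46 to 1.56. The ratios correlated with a Pearson r of 0.955 over the 78 members, and of 0.866 over 24716 genes, as a description across genes, which are not independent replicates. All 26 members called higher and all 19 called lower had that direction in both lines, though the calls rest on these same libraries, and over all members the sign was the same in 62 of 78, against 20841 of 24716 genes. Each line has 1 primed library, and the lines cannot be told apart from the method of induction.

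The difference between the lines was tested with edgeR in a model with line, state and their interaction. None of the 78 members passed after adjustment (1 at an unadjusted p under 0.05), against 1 of 26497 genes, or 0.00377%, with 853 at an unadjusted p under 0.05. The member with the unadjusted call was MRPS17. It stood at 67.4, 69.2 and 66.3 CPM in AICAR 1, AICAR 2 and VPA and at 41.3 CPM in primed EOS, a log2 ratio of 0.71. In the CA-p38 EOS line it stood at 64.5 CPM in CA-p38 and at 60.9 CPM in primed CA-p38, a log2 ratio of 0.08. The lines differed mainly in the primed library, and MRPS17 had the largest ratio between the primed libraries of any member, 1.47. Of the 4 combinations of line and state only naive EOS has more than 1 library, so the spread in this test comes from AICAR 1, AICAR 2 and VPA alone, and a p that misses the threshold does not show that the lines responded alike.

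**Figure D4:**
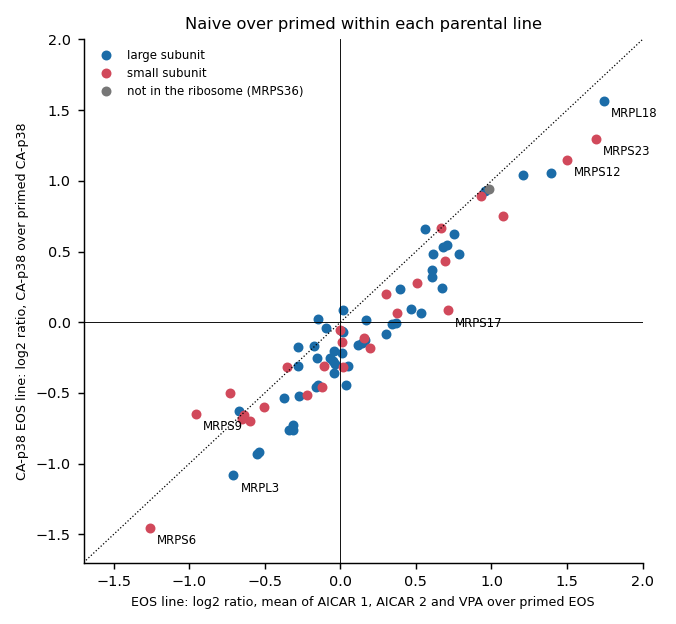
Log2 ratio of naive over primed CPM for each of the 78 members in the EOS line (horizontal) and the CA-p38 EOS line (vertical), with the line of equality dotted. Of the 78 points 67 lie below the line of equality, and MRPL18 is the highest and MRPS6 the lowest in both lines.

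The spread between libraries of one state was small. The highest naive library exceeded the lowest by a median factor of 1.18 over the members, and by at most 1.42. The CA-p38 library was the lowest of the naive ones in 37 members, AICAR 2 in 23, AICAR 1 in 10 and VPA in 8. AICAR 1 was the highest in 33. Between the primed libraries, primed CA-p38 was above primed EOS in 59 of 78 members, with a median ratio of 1.11.

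Some of these genes share a start region with a gene on the other strand. For 27 members (34.6%) a protein-coding gene starts within 1000 bases on the opposite strand, against 14.8% of 16773 protein-coding genes tested. Starts were taken here as the outermost annotated edge of each gene, which can lie far from the RefSeq start. The search gave 26 pairs with a gene that is no member. In 9 pairs both genes passed the test, 6 in the same direction and 3 in opposite directions, and over all such pairs of coding genes 334 of 487 (68.6%) went in the same direction. Among the 3, MRPS22 with PRR23A rests on an edge at 139005806, while the RefSeq stretch of MRPS22 is at chr3:139343844-139344023. The pair of MRPL11 with PELI3 likewise rests on an edge at 66466738, against a RefSeq stretch at chr11:66438819-66438998. All these counts depend on the rule for the start. MRPL18 starts 109 bases from TCP1, a subunit of the cytosolic chaperonin, which was also higher (log2 0.87). MRPS12 starts 181 bases from SARS2, the mitochondrial seryl-tRNA synthetase, whose log2 fold change was 0.31 (edgeR adjusted p = 0.0590). By the outermost edges, MRPL51 starts 485 bases from NCAPD2, a condensin subunit, which was lower (log2 -2.02), and MRPL50 starts 233 bases from ZNF189 (log2 -1.33). MRPL52 went the other way from SLC7A7, an amino acid transporter 59 bases away (log2 3.58). The only pair of members, MRPL46 and MRPS11, starts 63 bases apart, and neither gene passed the test. Exons or introns of 36 members overlap another coding gene, in 12 on the same strand. Reads were aligned to transcripts, so only overlapping exons can share them, and which overlaps include exons was not examined. Where they do, the counts depend on how shared reads were assigned.

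Other genes of mitochondrial translation were read from the same fit, in lists chosen for their function. The background was 26% higher and 27% lower among all genes tested. Among protein-coding genes in the members' range of mean CPM, 12.1 to 281, it was 28.6% and 41.1%. LRPPRC, TUFM, GARS1 and most transcripts of the mitochondrial genome lie above that range. None of the lists is shown to stand apart from this background. Of 5 ribosomal subunits not named MRP, 3 were higher and 1 lower. DAP3, a GTP-binding protein of the small subunit, stood at 149, 129, 144 and 148 CPM in AICAR 1, AICAR 2, VPA and CA-p38 against 83.4 and 75 CPM in primed EOS and primed CA-p38 (log2 0.85 ± 0.11), and PTCD3 (0.39) and AURKAIP1 (0.30) were higher by less. CHCHD1 was lower (-0.44), and GADD45GIP1 had a log2 fold change of 0.09 and no call.

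Of 28 genes of ribosome assembly and ribosomal RNA modification, 13 were lower (46.4%) and 6 higher (21.4%), near the shares of coding genes at similar levels. NGRN, needed for the stability of the large ribosomal RNA, had the lowest value (log2 -1.17 ± 0.10), followed by TRMT10C, a methyltransferase of the mitochondrial RNase P (-0.66), and MTERF3 (-0.66). MPV17L2 (log2 1.43 ± 0.14), NSUN4, a methyltransferase of the small ribosomal RNA (1.28 ± 0.15), and the GTPase NOA1 (0.86 ± 0.13) were higher. The 13 fell to 4 without the primed CA-p38 library.

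Of 17 translation factors and insertion proteins, 6 were higher and 1 lower. MTIF2, an initiation factor, stood at 160, 140, 166 and 159 CPM in AICAR 1, AICAR 2, VPA and CA-p38 against 64.8 and 71.2 CPM in primed EOS and primed CA-p38 (log2 1.20 ± 0.11). OXA1L, which inserts newly made proteins into the inner membrane, was higher as well (log2 1.08 ± 0.10), and so was the release factor MTRF1 (1.0 ± 0.21). LRPPRC and SLIRP, which together stabilise mitochondrial messages, were higher by 0.51 and 0.67 on the log2 scale, and the elongation factor TUFM by 0.40. MTRF1L was lower (log2 -0.54 ± 0.17).

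Of 22 genes of mitochondrial aminoacyl-tRNA synthesis, 4 were higher and 4 lower. AARS2, the alanyl-tRNA synthetase, stood at 252, 216, 268 and 240 CPM in AICAR 1, AICAR 2, VPA and CA-p38 against 43.1 and 42.7 CPM in primed EOS and primed CA-p38 (log2 2.51 ± 0.12, edgeR adjusted p = 2.90e-09), a larger change than that of any ribosomal protein gene. GARS1, which charges glycine in both the cytosol and the mitochondrion, was higher (log2 1.03 ± 0.10). VARS2, the valyl-tRNA synthetase, was lower (-0.66).

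Of 15 transcripts of the mitochondrial genome, the messages this ribosome translates and its RNAs, 6 were higher and 3 lower. MT-CO1, a cytochrome c oxidase subunit, had the highest fold change (log2 1.01 ± 0.17), and MT-ND1 (0.68), MT-ND4 (0.63) and MT-ND2 (0.50), subunits of complex I, were also higher. MT-ND3 (-0.70), MT-ATP8 (-0.54) and MT-ATP6 (-0.44) were lower. Both ribosomal RNAs varied within each state, in a split that ran across the states. For each RNA, AICAR 1, VPA and primed EOS stood above AICAR 2, CA-p38 and primed CA-p38. In the order of the deposited count columns, the former set comes before the latter. Whether the 2 sets were prepared apart was not tested. MT-RNR1 stood at 72.5, 33.0, 70.3 and 30.6 CPM in AICAR 1, AICAR 2, VPA and CA-p38. In primed EOS and primed CA-p38 it stood at 39.2 and 14.5 CPM (log2 0.94 ± 0.41). MT-RNR2 stood at 434, 187, 383 and 214 CPM against 392 and 155 CPM (log2 0.16 ± 0.36). Neither RNA passed the test, and poly(A) selection is not designed to capture them. MT-ATP6 and MT-ND6, also called, overlapped between the groups. These calls depended on the primed library used: without primed EOS 10 of the 15 were higher and 0 lower, and without primed CA-p38, 3 were higher.

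**Figure D5:**
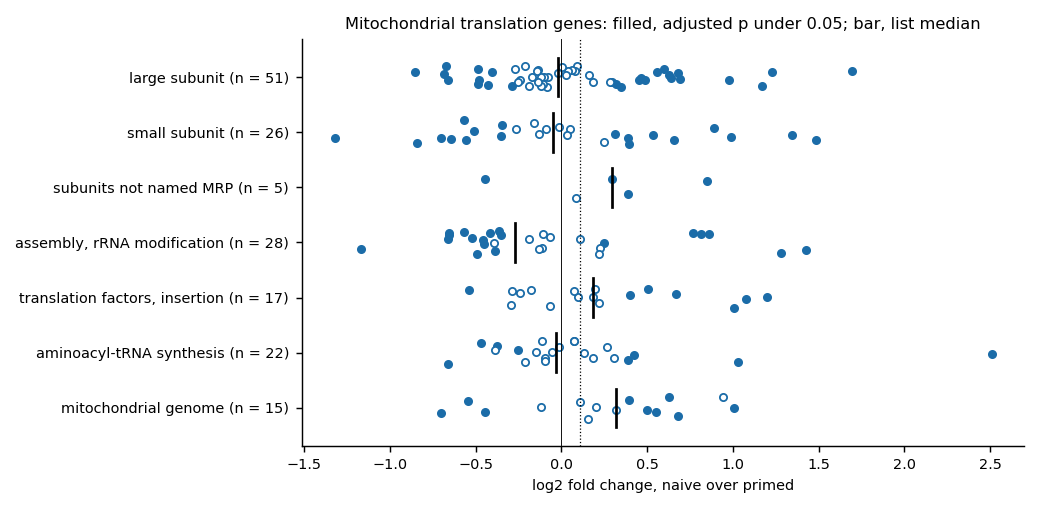
Log2 fold change (naive over primed) of each gene of the 2 ribosomal subunits and of the 5 lists of mitochondrial translation, with filled points for an adjusted p under 0.05, a bar at the median of each list and a dotted line at the median of all genes tested. The medians are -0.02 and -0.05 for the subunits, -0.27 for the assembly list and 0.19 for the translation factors. They are 0.30 for the subunits not named MRP, -0.03 for aminoacyl-tRNA synthesis and 0.32 for transcripts of the mitochondrial genome. Beside them, the median is 0.11 for all genes tested and -0.16 for coding genes in the members' range of mean CPM. Differences between lists were not tested.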

How the data were processed

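RNA from CD75+/SUSD2+ sorted naive cells and from primed cells was enriched for poly(A) and made into libraries with the SMART-Seq Stranded kit by the authors. Per the study's methods, reads were trimmed with Trim Galore 0.4.4 and cutadapt 1.15 and aligned with Bowtie2 2.2.5 to transcripts, coding and noncoding, from Ensembl release 100 (GRCh38), and reads of sufficient mapping quality were assigned to genes. The deposited values are raw counts per Ensembl gene identifier, without normalization. Whether counting used the strand is not given in the sources used here. A further 23 columns, from other studies, were left unused, as were 26 rows of spike-in sequences with at most 1 count in a library.

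Counts of identifiers sharing a symbol were summed over the whole table. For naive (n = 4) against primed (n = 2) libraries, glmQLFTest was run after filterByExpr and TMM scaling in edgeR 4.0.16 (R 4.3.3) without covariates, with Benjamini-Hochberg adjustment over 26497 genes, a threshold of 0.05 and a common dispersion of 0.0563. The functions were tested on simulated data. TMM factors ran from 0.936 to 1.06. Alternatives were median-ratio scaling, library totals, DESeq2 1.42.0, limma-voom (limma 3.58.1), other filters, separate identifiers, added pseudogene reads, parental line as a block, summed AICAR libraries and leaving out each library. The test of the difference between lines and the sums without MRPS23 or MRPL18 were chosen after seeing the data. Genes named are the 8 highest and 8 lowest fold changes, the MRPS18 paralogs, members with known roles, the 4 highest and 4 lowest per kilobase, and the 2 with the largest ratio between primed libraries; the neighbours, the other members beside the threshold, MRPL38 among the promoters and the example genes of the lists were chosen after their values were seen. Members and lists were chosen with earlier results of these data known. Positions and exon lengths came from GENCODE release 44 and promoters from RefSeq. Python 3.11.15 with pandas 2.3.3 was used for sums and matplotlib 3.10.9 for plots.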

Additional observations from a re-analysis of the deposited data

Results flagged for a closer look

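Of 56 values in the naive group, 2 lay apart from the rest by Dixon's criterion, which chance alone meets in about 1 in 20 groups. MRPL34 stood at 58.1 CPM in AICAR 1, against 47.9 to 49.6 CPM in the other naive libraries. The members made up 0.567% of all counts in the CA-p38 library, against 0.596% to 0.601% in the other naive libraries.

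Of 51 genes examined, 5 had every naive library of the EOS line above primed EOS while CA-p38 lay below primed CA-p38. By the mean of the EOS naive libraries, the sign was opposite in 16 of all 78 members. The log2 ratios in the CA-p38 EOS line and the EOS line were -0.086 and 0.30 for MRPS18A, -0.15 and 0.14 for MRPL58, -0.11 and 0.15 for MRPS2, -0.19 and 0.20 for MRPS34, and -0.030 and 0.13 for GADD45GIP1. None of these genes passed the test between naive and primed, and no mitochondrial ribosomal protein gene passed the edgeR test of the difference between the lines, with 1 of 78 (MRPS17) at an unadjusted p under 0.05. That test takes its spread from the naive EOS libraries alone.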

How the results depend on the processing

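Of the 26 members higher in naive cells, 17 kept their call in all 16 alternatives, as did 9 of the 19 lower ones, and no called member changed sign. Higher calls ran from 18 (without primed EOS) to 28 (library totals), and lower calls from 11 (without primed CA-p38) to 21 (median-ratio scaling and DESeq2). Leaving out 1 library gave 11 to 20 lower members; without primed CA-p38, 39.4% of all genes tested were called. The members' median was 0.084 with library totals. The summed level was 1.18 times primed with library totals and 1.04 times without the 3 members of highest mean CPM. With 1 library left out, subunits not named MRP had 1 to 3 higher (1 without primed EOS) and 0 to 1 lower, and 0 lower with library totals. Assembly genes had 4 to 13 lower, with 4 without primed CA-p38. Translation factors had 3 lower with median-ratio scaling and with DESeq2, 2 with limma-voom and with separate identifiers, 0 with library totals and 0 to 2 with 1 library left out. Aminoacyl-tRNA synthesis had 2 lower with library totals and with the line block, and 2 to 4 with 1 library left out. Transcripts of the mitochondrial genome had 3 to 10 higher and 0 to 4 lower with 1 library left out. Of the 33 members without a call, 15 changed sign in some alternative, among those named MRPS2 (-0.00204 with median-ratio scaling and -0.00202 with DESeq2, -0.036 to 0.13 with 1 library left out), MRPS34 (-0.0182 with both, -0.10 to 0.17 with 1 left out, among them -0.01 without VPA and without AICAR 1), MRPL58 (-0.0026 to 0.10), MRPL45 (-0.27 to 0.033) and MRPL46 (-0.39 to 0.078). The causes of these changes were not tested. Pseudogene reads came to 23.3% of the counts of MRPS31 and 4.58% of those of MRPL45, and adding them left 26 higher and 19 lower. No paired analysis was possible because the replicate numbers of the naive and primed libraries name samples only; parental line as a block gave 24 higher and 19 lower. With 2 primed libraries, 1 from each line, the spread within the primed state and the difference between the lines cannot be told apart.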
